A study of Mus musculus
Mus spretus with 18 samples.

Results

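Glutamate is the main excitatory transmitter of the mammalian brain, and 8 genes that encode its receptors were followed here: Grin1, Grin2a, Grin2b, Gria1, Gria2, Gria4, Grik2 and Grm5. The genes were chosen by name, as symbols of the glutamate receptor families, from 38924 genes with an expression value. They hold 54 of the 41524 skipped exon (SE) events that were counted in cerebral cortex, and 56 of the 100197 distinct events counted over 7 tissues.

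RNA sequencing libraries came from female F1 hybrids of a mother of the laboratory strain C57BL/6J and a father of SPRET/EiJ, an inbred Mus spretus strain. Cerebral cortex, heart, kidney, lung, spleen and liver were taken from untreated animals aged 8 weeks, and embryonic stem cells (ESC) were grown from F1 hybrids, with 2 libraries per tissue. Fibroblasts of F1 hybrids, treated for 4 h with DMSO or with 0.1 µM pladienolide B, an inhibitor of the splicing machinery, gave 2 libraries each and enter no comparison here. The organs of the study came from 2 animals and the ESC libraries from separate clones, so each p-value below measures the spread over 2 libraries per tissue. Every hybrid cell carries both parental alleles in one nucleus, which allows the inclusion of an exon to be read for each allele in the same library. Reads over the junctions of SE events summed to between 46558287 and 129496306 per library. The cortex libraries had the lowest sums, with 46558287 and 48273341. A read can count for several events, so these sums are not the sequencing depth of a library.

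Ionotropic glutamate receptors are tetrameric ion channels that open when glutamate binds. NMDA receptors combine the obligatory subunit encoded by Grin1 with glutamate-binding subunits such as those of Grin2a and Grin2b, pass calcium, and need both glutamate and membrane depolarisation to conduct. AMPA receptors, built from the products of the Gria genes, carry most fast excitatory currents, and the product of Gria2 sets their permeability to calcium. Grik2 encodes a kainate receptor subunit, and Grm5 encodes a metabotropic receptor that acts through a G protein rather than through a pore of its own. Alternative splicing is known to change the ligand-binding, extracellular and cytoplasmic parts of several of these proteins.

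The libraries carried the defining transcripts of their labelled tissue. The neuronal genes Snap25, Rbfox3, Syt1 and Nefl summed to 2084 and 2189 TPM, a level scaled to gene length and to the total of the library, in the cortex libraries and to at most 46.3 in the mean of any other tissue. Myh6, Umod, Sftpc, Cd79a, Alb and Pou5f1 were each highest in heart, kidney, lung, spleen, liver and ESC, respectively. The cortex tissue also held glia, with Mbp of oligodendrocytes at 912 and 821 TPM and Mog at 153 and 134 TPM. In such bulk tissue, fewer cells of a type and less RNA per cell cannot be told apart.

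The first question was where the receptor genes were expressed. All 8 were highest in cortex, and 7 of them stayed under 1 TPM in each of the 12 libraries from the other 6 tissues. Gria1 was the exception, since it reached about 10 TPM in lung. Because TPM is scaled to gene length, levels of different genes can be set side by side.

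Among the NMDA receptor genes, Grin1 (chromosome 2, 25291177 to 25319187, minus strand, mm10) was listed at 169 and 189 TPM in the cortex libraries. Elsewhere it was highest in ESC, at 0.206 and 0.285 TPM. Grin2b (chromosome 6, 135713221 to 136173615) reached 70.5 and 87.1 TPM in cortex, and its highest other library, again from ESC, had 0.0576. Grin2a (chromosome 16, 9567901 to 9996083) had the lowest cortex level of the 8 genes, with 15.2 and 18.5 TPM, and was listed at 0 in 4 of the 12 other libraries. The Grin2b level was 4.64 and 4.71 times the Grin2a level in cortex replicates 1 and 2.

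The AMPA receptor genes included the most abundant of the 8. Gria2 (chromosome 3, 80681450 to 80804227) was listed at 371 and 378 TPM in cortex, and at no more than 0.269 TPM in any other library. Gria1 (chromosome 11, 57011571 to 57330244) had 263 and 284 TPM in cortex. In lung it was listed at 10.5 and 10.1 TPM, well above its level in heart, the next tissue, with 0.215 and 0.253. Gria4 (chromosome 9, 4417893 to 4796234) had 83.0 and 79.9 TPM in cortex, and its second tissue was kidney, with 0.713 and 0.554 TPM. The cortex ranges of Gria2, Gria1 and Gria4 did not overlap.

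The kainate receptor gene Grik2 (chromosome 10, 49093680 to 49790161) had 39.8 and 38.0 TPM in cortex and its next highest level in lung, 0.268 and 0.239 TPM. The metabotropic receptor gene Grm5 (chromosome 7, 87583981 to 88135063) had 99.4 and 105 TPM in cortex. It was listed at 0 in 9 of the 12 other libraries, and its highest value there was 0.0144 TPM in lung. In cortex the order was Gria2, Gria1, Grin1, Grm5, Gria4, Grin2b, Grik2 and Grin2a. Of neighbours in that order, only Gria4 and Grin2b had overlapping ranges.

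**Figure D1:**
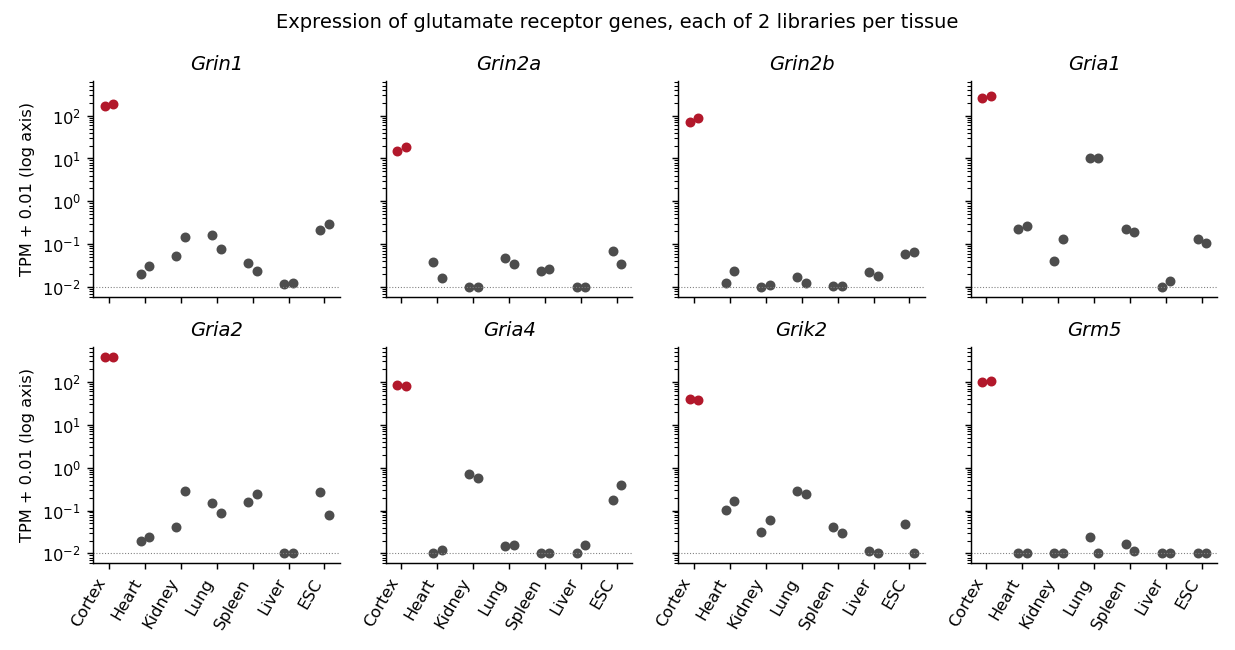
Expression of the 8 glutamate receptor genes, one panel per gene. The y axis gives TPM plus 0.01 on a log axis, each point is one library (2 per tissue, cortex in red), and the dotted line marks a value of 0. Cortex points lie between 15.2 and 378 TPM, and of the other points only those of Gria1 in lung, at 10.5 and 10.1 TPM, lie above 1 TPM.

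Each of the 8 genes was higher in cortex than in the mean of the 6 other tissues by limma's moderated test on log2(TPM + 0.1), adjusted over 21925 genes. All of them except Gria1 passed the filter of 1 TPM in 2 libraries through the cortex libraries alone. For those genes a call higher in cortex was largely fixed in advance. Cortex was above the other tissues for 50.4% of all genes in the same test, so the call alone sets these genes apart little. The size of the difference was larger: its median was 9.45 on the log2 scale over the 8 genes and 0.381 over all genes tested. The pseudocount understates differences of genes near 0. At this pseudocount Gria2 had the largest difference of the 8, at 11.01 ± 0.36 (SE, adjusted p = 1.61e-09), which ranked 11 among all genes. Grin1 followed with 10.10 ± 0.21 (adjusted p = 9.58e-11) and Grm5 with 9.97 ± 0.10 (adjusted p = 6.42e-12). Grin2a had the smallest, at 7.18 ± 0.13 (adjusted p = 4.37e-11), also with the other pseudocounts. The order above it depends on the pseudocount: at 0.01 Grm5 was largest (13.13), before Gria2 (12.49), Grin2b (12.07) and Grin1 (11.71), and at 1 Gria2 (8.41) was followed by Gria1 and Grin1 (both 7.38) and then Grm5 (6.68).

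Against each other tissue singly, with the same 2 cortex libraries in every contrast, all 48 gene and tissue pairs were called higher in cortex. Except for Gria1, the genes passed the filter through cortex alone, so these calls too were largely fixed in advance. The share of all genes called higher in cortex was 55.6% against heart, 46.0% against kidney, 41.5% against lung, 42.7% against spleen, 69.7% against liver and 41.2% against ESC. At this pseudocount the smallest of the 48 differences was that of Gria1 between cortex and lung, 4.72 on the log2 scale (limma, adjusted p = 7.25e-08). Gria4 between cortex and kidney, at 6.80, was the smallest for its own gene (limma, adjusted p = 4.95e-09).

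The rest of the pathway was followed in 3 lists. Of 18 other glutamate receptor genes, 17 passed the filter of 1 TPM in 2 libraries and 16 of these were higher in cortex, against 50.4% of all genes, with a median log2 difference of 5.91. The highest of them in cortex were Grik5, a kainate receptor subunit, with a mean of 162 TPM, Gria3, an AMPA receptor subunit, with 93.0, and Grm2, a metabotropic receptor, with 53.8. Grin3b was highest in kidney, with a mean of 1.87 TPM against 0.488 in cortex, and was not called (log2 difference 0.58, limma adjusted p = 0.105). Grm6, the receptor of retinal bipolar cells, did not pass the filter and had its highest mean, 0.696 TPM, in spleen.

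Of 28 genes for auxiliary subunits and scaffold proteins that bind these receptors, 27 were higher in cortex, where 50.4% of all genes were, with a median log2 difference of 6.61. Dlg4, which encodes the scaffold PSD-95, was highest with a mean of 374 TPM, followed by Cnih2, an AMPA receptor auxiliary subunit, with 306, and Cacng7, of the same function, with 237. Homer3, a scaffold that binds group I metabotropic receptors, was highest in lung, at 48.1 TPM against 12.2 in cortex, and was not called (limma, adjusted p = 0.207). Grip2 was highest in heart, with 58.7 TPM against 26.6 in cortex. Pick1 had its highest mean in ESC, with 21.5 TPM against 20.4 in cortex. Its ESC libraries, with 25.9 and 17.1 TPM, lay on either side of its cortex libraries, with 19.9 and 20.9.

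Of 11 genes listed under glutamate transport and metabolism, 10 were higher in cortex, against 50.4% of all genes, with a median log2 difference of 3.86. The list includes Slc1a4, a neutral amino acid transporter of a glutamate transporter family. Glul, the glutamine synthetase of astrocytes and liver, had a mean of 1200 TPM in cortex and 1146 in liver. Slc17a7, the vesicular glutamate transporter of most cortical excitatory neurons, had 948 TPM, and Slc1a2, the main astrocytic uptake transporter, had 678. Glud1, a mitochondrial enzyme that converts glutamate, was highest in liver, at 713 TPM against 226 in cortex, and was not called (limma, adjusted p = 0.246). Gls2 was also highest in liver (285 TPM, 23.9 in cortex), and Slc1a1 in kidney (108 TPM, 63.5 in cortex). Slc1a4 had its highest mean in ESC (70.3 TPM, 57.5 in cortex). Its ESC libraries, with 113 and 28.0 TPM, lay on either side of its cortex libraries, with 55.6 and 59.5.

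The genes whose levels lay nearest to each receptor gene over the 7 tissue means, by root mean square difference of log2(TPM + 0.1), were as follows. Grm5 was nearest to Gpr26 (0.0639) and Neurod6 (0.115). Grin2a was nearest to Cdh10 (0.116) and Fam135b (0.159), and Grin2b to Gabrb2 (0.189), a GABA receptor subunit, and Slc17a6 (0.209), a vesicular glutamate transporter. Gria4 was nearest to Gm23811 (0.292) and Syt16 (0.434), Grin1 to Unc80 (0.301) and Syt4 (0.316), and Grik2 to Cnih3 (0.406), an AMPA receptor auxiliary subunit, and Sstr1 (0.420). Gria2 was nearest to Rasgrf1 (0.557) and Gm25749 (0.578), and Gria1, the only one with a level above 1 TPM outside cortex, lay farther from its nearest genes, Tmem59l (0.874) and Rnf112 (0.882). The authors split reads over overlapping genes among them. The positions of Gm23811 and Gm25749 were not analysed here, so whether they share reads with Gria4 and Gria2 was not tested.

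The second question was which exons of these genes were alternatively spliced in cortex. Inclusion was measured as percent spliced in (PSI), here written from 0 to 1, the share of transcripts that hold the exon, from reads over the junctions of the exon and over the junction that skips it. All 54 events had at least 20 junction reads in each cortex library, and they describe 46 exons. For each exon the event with most reads was used, with between 39 and 9125 reads per library. Of the 46 exons, 31 had a PSI above 0.99 in both libraries, and 4 (8.70%) lay between 0.05 and 0.95 in both. Over all 32017 autosomal exons measured the same way in cortex, 5515 (17.2%) did. The median PSI was 0.9891 over all these exons and 0.9975 over the 46, and the share of all exons above 0.99 was not counted. The 4 alternative exons were 2 of Grin1, 1 of Grik2 and 1 of Grm5, and none was found by this limit in Grin2a, Grin2b, Gria1, Gria2 or Gria4. These counts leave out the choice within the paired exons of Gria1, Gria2 and Gria4, described below, which PSI cannot show.

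The 4 alternative exons all had a length that is a multiple of 3, which leaves the reading frame downstream unchanged. This was so for 20 of all 46 exons of the receptor genes, and for 50.2% of the alternative exons measured in cortex. These counts are a description of these genes, and 4 exons are few.

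Grin1 carries the N1 cassette, an exon of 63 bp that codes for 21 residues of the extracellular amino-terminal domain of the subunit. This exon (chromosome 2, 25311343 to 25311405) had a PSI of 0.303 and 0.277 in the cortex libraries, from 3764 and 4070 reads. The 95% exact binomial intervals of the 2 libraries, 0.289 to 0.317 and 0.265 to 0.290, overlapped only at their edges. The exon was therefore skipped in most Grin1 transcripts in both libraries.

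The C1 cassette of Grin1, 111 bp that code for 37 residues of the cytoplasmic tail, lay at chromosome 2, 25294438 to 25294548. It is followed by an exon with a pair of acceptor sites 356 bp apart, known for giving the C2 and C2′ ends of the protein. With the near acceptor (flanking exon ending at 25292484) the PSI of the C1 exon was 0.735 and 0.761. With the far acceptor (flanking exon ending at 25292128) it was 0.577 and 0.615, and the intervals of both settings did not overlap in either library. The 2 events share the reads that enter the C1 exon from its 5′ side and are not independent. Each counts these reads for transcripts of either acceptor, but skipping reads of its own acceptor only. Each PSI therefore overstates C1 inclusion with its acceptor and is not the share of all Grin1 transcripts that hold the exon. Among reads that skipped the C1 exon, the near acceptor took 580 of 1455 in replicate 1, or 39.9% (exact 95% interval 37.3 to 42.4), and 40.9% (38.3 to 43.5) in replicate 2.

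Grik2 had an exon of 87 bp (chromosome 10, 49104979 to 49105065) near the 3′ end of the gene with a low inclusion in cortex. Its PSI was 0.145 and 0.140, from 494 and 472 reads. The intervals, 0.121 to 0.172 and 0.116 to 0.168, overlapped almost fully. Another exon of the same region, of 139 bp, had a PSI of 0.869 and 1.00 on only 57 and 39 reads, so that it passed the limit in 1 library and not in the other.

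Grm5 had the opposite pattern. Its 96-bp exon (chromosome 7, 88116193 to 88116288), which codes for the 32-residue insert that marks the b form of mGluR5 in the intracellular tail, was included at 0.814 and 0.831, from 1070 and 1242 reads. The interval was 0.782 to 0.843 in replicate 1 and 0.802 to 0.857 in replicate 2. The other exons of Grm5 that were measured, of 250 and 236 bp, lay between 0.995 and 1.00.

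**Figure D2:**
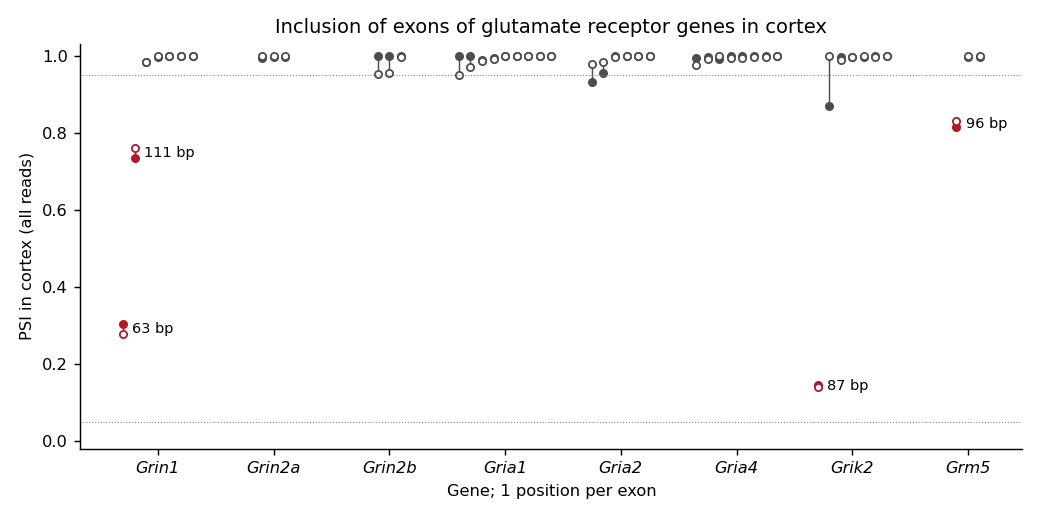
PSI of the 46 exons of the 8 genes in cortex from all reads, one position per exon, with replicate 1 as a filled and replicate 2 as an open circle joined by a line. Dotted lines mark 0.05 and 0.95. The 4 exons that lie between these limits in both libraries are red and carry their length, with PSI near 0.29 and 0.75 for the Grin1 exons, 0.14 for Grik2 and 0.82 for Grm5. The value of 0.75 is that of the C1 exon with the near acceptor and overstates its inclusion.

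Exons of the AMPA receptor genes looked constitutive by PSI, but 3 of the genes hold a pair of adjacent exons of 115 bp that are known to be used one at a time. Such a pair, called flip and flop, codes for a part of the ligand-binding domain that affects desensitisation. An event counts as skipping only reads that leave out both exons, so PSI says nothing of the choice within a pair. With the flanks used below, reads that leave out both numbered 98 and 35 for Gria2, 0 and 56 for Gria1, and 1 and 3 for Gria4. With another downstream flank, further such reads numbered 10 and 16 for Gria2, and 40 and 23 for Gria1. The choice was measured instead as the share of inclusion reads that went to the exon nearer the 5′ end of the gene, a measure added after these data were seen.

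In Gria1 the 5′ exon of the pair (chromosome 11, 57309769 to 57309883) took 3367 and 3514 reads, and the 3′ exon (57310608 to 57310722) took 1926 and 2116. The 5′ share was 63.6% (exact 95% interval 62.3 to 64.9) and 62.4% (61.1 to 63.7) in the 2 cortex libraries. In Gria2, on the minus strand, the 5′ exon (chromosome 3, 80691320 to 80691434) took 60.4% (59.2 to 61.6) and 58.1% (57.01 to 59.24) of the reads of the pair. The 3′ exon of that pair spans 80690404 to 80690518. In Gria4 the 5′ exon (chromosome 9, 4432773 to 4432887) took 715 and 701 reads against 262 and 227 for the 3′ exon (4427030 to 4427144), a share of 73.2% (70.3 to 75.9) and 75.5% (72.6 to 78.3).

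The 5′ exon was therefore the more used one in all 3 genes and in both cortex libraries. The shares of Gria4 lay above those of Gria1 and Gria2 without overlap of the intervals, and both Gria1 shares lay above both Gria2 shares, though the lowest bound for Gria1, 61.1%, was under the highest for Gria2, 61.6%. With the other downstream flank of Gria2, its shares were 64.2% and 60.8%, which overlap those of Gria1. The intervals cover counting error only.

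Kidney was the only other tissue in which both exons of a pair were counted, for Gria4. There the 3′ exon took 20 and 11 reads and the 5′ exon took 0 and 1. The 5′ share was 0 of 20 reads in replicate 1, with an exact 95% interval up to 16.8% (3 counts in 20 would be 15.0%). In replicate 2 it was 8.33% of 12 reads (exact 95% interval 0.211 to 38.5). Both kidney values lay below both cortex values, and the mean share was 70.2 percentage points lower. With 2 libraries against 2, the exact two-sided permutation test gave p = 0.333, the smallest value it can give. Replicate 2 falls short of 20 reads, and Gria4 was listed at only 0.713 and 0.554 TPM in kidney.

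**Figure D3:**
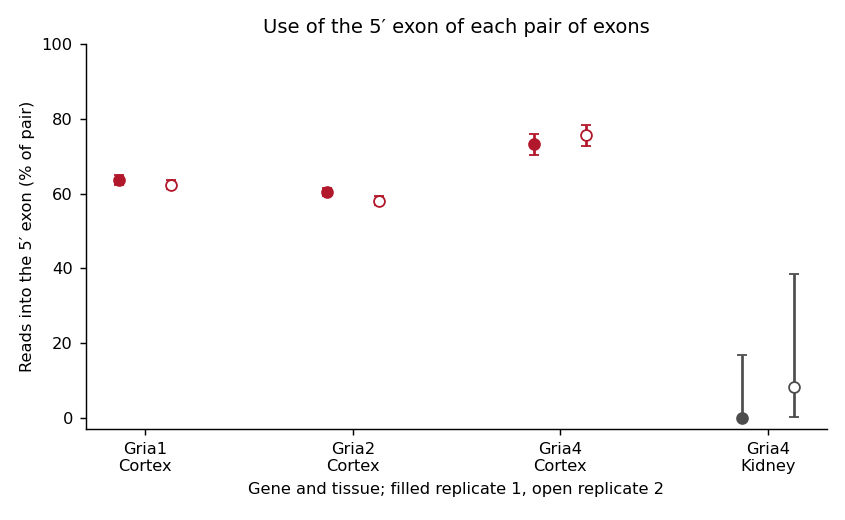
Share of reads into the 5′ exon of each pair of 115-bp exons, in percent of the reads into either exon, for Gria1, Gria2 and Gria4 in cortex (red) and Gria4 in kidney (grey). Points are single libraries (replicate 1 filled, replicate 2 open) and bars are exact 95% intervals. The cortex libraries lie between 58.1% and 75.5%, and the kidney libraries at 0 and 8.33%.

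The third question was whether the C57BL/6J and SPRET/EiJ alleles differed in splicing in cortex. Allelic reads are those with a variant that assigns them to one parent. The order of the alleles in the tables was checked on imprinted genes: Meg3 and Rian, expressed from the maternal copy, had 99.0% and 99.7% C57BL/6J reads, and Peg3 and Snrpn, expressed from the paternal copy, had 0.365% and 0.0620%. Of 13 imprinted genes with at least 100 allelic reads, 12 had most reads on the copy listed as expressed, though Igf2r (56.2% C57BL/6J) and Inpp5f (46.9%) only barely. The 13th, Grb10, was listed as maternal and had 4.26% C57BL/6J reads, and it is known to be expressed from the paternal copy in neurons. Of the 54 events of the receptor genes, 35 reached 20 reads for either allele in both libraries. They describe 31 exons and include all 4 alternative ones.

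None of the 35 events was called at an adjusted p under 0.05 with a PSI difference of at least 0.1, by a quasi-binomial model adjusted over 25042 events with limma's moderated dispersion. In the same test 2.13% of all events were called. None of the 35 had an unadjusted p under 0.05 either, where 12.9% of all events did. The smallest of the 35 in the quasi-binomial model was 0.0542, with an adjusted p of 0.401. Both alleles of a library share an animal. With the library as a block, again none of the 35 was called (smallest adjusted p = 0.356, quasi-binomial model). The calls over all events fell from 533 to 355. A total of 30 of the 35 events differed by less than 0.03 in mean PSI between the alleles. Over all 25042 events the median absolute difference was 0.0116, so differences this small were common, and the share of all events under 0.03 was not counted. Most of the 35 events also had a PSI close to its upper limit, which leaves little room for a difference. The count therefore does not set these genes apart.

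The 96-bp exon of Grm5 had a PSI of 0.824 and 0.776 on the C57BL/6J allele and of 0.699 and 0.748 on the SPRET/EiJ allele. Both C57BL/6J values lay above both SPRET/EiJ values. Over pooled reads the difference was 0.07, with a 95% interval from -0.01 to 0.16 (adjusted p = 0.439, quasi-binomial model).

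The 87-bp exon of Grik2 showed the same order. Its PSI was 0.143 and 0.164 on the C57BL/6J allele and 0.0638 and 0.107 on the SPRET/EiJ allele, without overlap. It rested on 160 and 158 reads. The pooled difference was 0.07, with an interval from -0.01 to 0.14 (adjusted p = 0.431, quasi-binomial model). For neither exon does the interval leave out a difference of 0.1.

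The N1 exon of Grin1 had a PSI of 0.261 and 0.256 on the C57BL/6J allele and of 0.265 and 0.205 on the SPRET/EiJ allele, so the alleles overlapped. With 1921 and 1987 reads it was the most deeply covered of the 4 exons. The interval of the difference ran from -0.03 to 0.07, which leaves out a difference of 0.1 (adjusted p = 0.552, quasi-binomial model). The C1 exon with the near acceptor had 0.551 and 0.671 on the C57BL/6J allele against 0.726 and 0.678, from only 109 and 136 reads, with both SPRET/EiJ values above both others. Its interval, from -0.25 to 0.10, was the widest of the 4. A difference of 0.1 was not detectable at this depth (adjusted p = 0.553, quasi-binomial model).

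**Figure D4:**
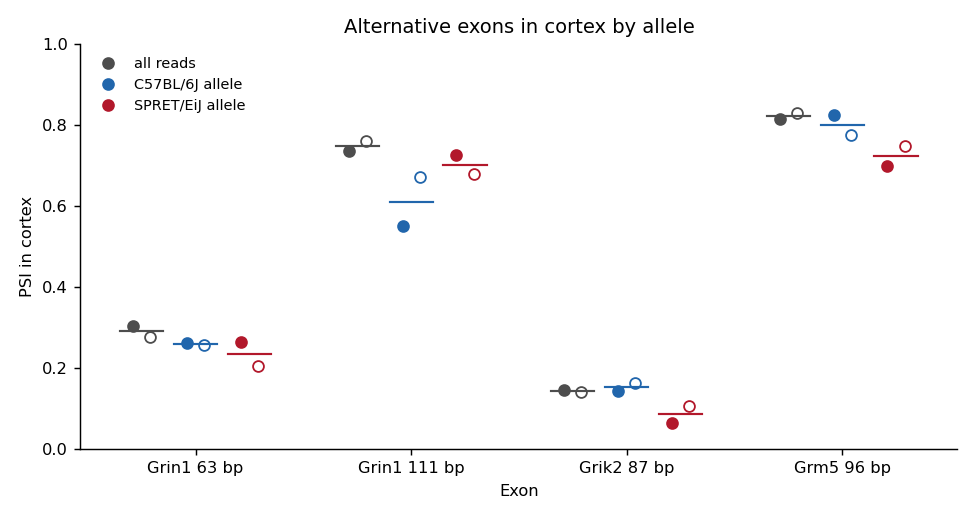
PSI in cortex of the 4 alternative exons from all reads (grey), from C57BL/6J reads (blue) and from SPRET/EiJ reads (red), with replicate 1 filled, replicate 2 open and the mean as a line. The alleles do not overlap for the Grik2 and Grm5 exons, with C57BL/6J higher, nor for the Grin1 111-bp exon, with SPRET/EiJ higher. They overlap for the Grin1 63-bp exon.

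For the pair of Gria2, the 5′ share was 61.4% and 55.8% on the C57BL/6J allele and 62.3% and 59.5% on the SPRET/EiJ allele, from 1609 to 1802 reads per allele and library. The values of the alleles overlapped, while within each library the SPRET/EiJ share was the higher one. The difference was not tested. The allelic reads of the Gria1 pair numbered 15 to 33 per allele and library and gave shares between 59.4% and 66.7%. The pair of Gria4 was not among the allelic events.

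PSI from allelic reads can deviate from PSI from all reads, because only junction reads near a variant can be assigned. The mean allelic PSI of each of the 35 tested events lay within 0.1 of that from all reads. Among the alternative exons it was 0.0827 lower for the C1 exon with the near acceptor, 0.0564 lower for the Grm5 exon, 0.0441 lower for the N1 exon and 0.0237 lower for the Grik2 exon.

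The share of allelic junction reads that came from the C57BL/6J allele was also taken for each gene. Mapping may favour one genome to an unknown degree, so this share need not equal the contribution of the allele to the mRNA. As the median over a gene's events and the mean of both libraries, the share had quartiles of 46.6% and 54.3% over 8973 genes in cortex, around a median of 50.4%. Grin1 (48.6%), Gria1 (51.6%), Gria2 (51.1%) and Grm5 (53.6%) lay within these quartiles, and Grik2 (45.9%) just below. Gria4 was at 57.7% and 58.8% in the 2 libraries, at percentile 86.7 of all genes.

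Grin2b lay farther out, with 67.7% and 67.4% C57BL/6J reads, at percentile 95.6. Its 3 events, which had between 102 and 141 allelic reads per library, gave values between 63.4% and 72.2%. The 73-bp and 239-bp exons of Grin2b overlap and have the same flanks, so their events share reads and are not independent. Grin2a lay at the other end, with 32.5% and 26.6%, at percentile 2.35, but its 2 events differed from each other. The 239-bp exon gave 17.2% and 11.6% C57BL/6J reads, and the 161-bp exon of the same gene 47.8% and 41.5%, with a mean of 44.7%, below the lower quartile of all genes. These shares are descriptions and were not tested, and events of a gene share its transcripts.

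**Figure D5:**
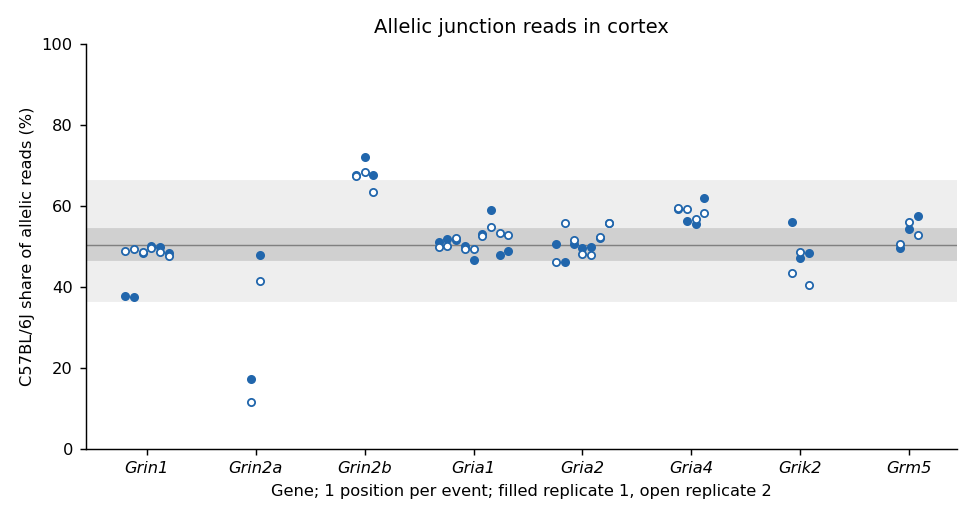
Share of allelic junction reads from the C57BL/6J allele in cortex, in percent, for each event with at least 20 allelic reads (replicate 1 filled, replicate 2 open), by gene. The dark band spans the quartiles over 8973 genes (46.6% to 54.3%), the light band their 5th to 95th percentile, and the line their median. Grin2b events lie above the dark band, and 1 of the 2 Grin2a events lies far below it.

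The last question, whether exons of these genes were spliced differently in cortex and in another tissue, could be asked for 1 exon. Spleen and liver had no event of these genes in their tables, and heart, kidney and ESC had none with 20 reads in both libraries. In lung, the 162-bp exon of Gria1 (chromosome 11, 57217772 to 57217933) had a PSI of 0.956 and 1.00, against 0.990 and 0.986 in cortex. The ranges overlapped, and the mean difference of 0.01 was not called (quasi-binomial model, p = 0.675, adjusted p = 0.875 over 18555 events). The same test called 12.2% of all events.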

How the data were processed

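Reads were mapped by the authors with HISAT2 2.0.1, against mm10 and a SPRET/EiJ genome, and rMATS counted the junction reads. The authors deposited, for each skipped exon, inclusion and skipping junction read counts with both replicates in one list (not readable as a plain count column), and the effective lengths of both forms, a score by rMATS. The deposited TPM were made by the authors from featureCounts. Their inclusion levels, p-values and FDR were not used. The liver labels give other strain names, and these libraries were used as the study describes them.

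PSI was recomputed from the counts and effective lengths, at 20 reads or more per library, on autosomes. Expression was tested with limma 3.58.1 (R 4.3.3), eBayes with trend, on log2(TPM + 0.1) for genes of at least 1 TPM in 2 of 14 libraries. Allelic and tissue differences in PSI were tested with a quasi-binomial model with dispersions of at least 1, moderated by squeezeVar toward a prior that follows read depth, taken from events with 50 or more reads of each form. Both tests were checked on simulated data, after which that limit was raised and raw dispersions for the prior were held at 0.001 or more. The number of calls in these data had been seen by then. Adjustment was by Benjamini-Hochberg. Alleles of a library come from one animal and are paired (correlation of their replicate differences 0.117). Replicate numbers of different tissues were not treated as pairs. Members were named first, then the 3 highest genes of each list and those not highest in cortex, the 2 nearest genes of each member, and exons with PSI from 0.05 to 0.95, each with its deepest event. Some items are not reported here. The genes and lists were chosen with earlier results of these data known. Alternatives covered the pseudocount, filters, read minimum, prior, block and libraries left out.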

Additional observations from a re-analysis of the deposited data

How the results depend on the processing

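All 8 genes stayed called higher in cortex with a pseudocount of 1 or 0.01, without the filter, without ESC, with heart and kidney alone as the other tissues (sequenced with the read length of cortex), without the variance trend and without each library in turn. The share of all genes called ranged from 42.5% without the filter to 55.7% without ESC, and from 45.7% to 53.0% when a library was left out. Over 21 pairs of tissues, the deviations of same-numbered libraries correlated between -0.0368 and 0.173, above 0.1 in 4. Pairs of organs were all positive, from 0.0335 to 0.173, and the negative values were all pairs with ESC. The numbers were not taken as pairs, and whether organs with the same number share an animal was not tested. With the replicate number as a block, 8 genes and 48 gene and tissue pairs were called as before, and 50.4% of all genes. With a replicate block for the library, the alleles gave 0 called events of 35, and 1.42% of all events in place of 2.13%. The count of 0 also held at 10 reads (36 events), at 50 reads (29 events) and without the depth trend. A count test on inclusion and skipping reads by edgeR was planned and was not run. The 4 alternative exons stayed 4 with halved inclusion reads and at 50 reads. The order of the log2 differences changed with the pseudocount. From single replicates, the mean difference between alleles (C57BL/6J minus SPRET/EiJ) ran from -0.175 to -0.0076 for the C1 exon, from -0.004 to 0.0508 for the N1 exon, from 0.0276 to 0.126 for the Grm5 exon and from 0.057 to 0.079 for the Grik2 exon; the higher size came from replicate 1 except for the N1 exon. Low expression outside cortex left 1 exon to test between tissues, and the intervals of the allelic difference were wide for the C1, Grm5 and Grik2 exons.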

Other observations

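Among the other glutamate receptor genes, 4 of 50 exons measured in cortex had a PSI between 0.05 and 0.95 in both libraries, a share of 8.00%. Among them were an 87-bp exon of Grik1, a kainate receptor gene, with 0.319 and 0.357, a 92-bp exon of Grm7 with 0.427 and 0.313, and a 285-bp exon of Grid1 with 0.933 and 0.944. Among the auxiliary subunits and scaffold proteins, 23 of 106 exons (21.7%) did so, and 20 of these 23 had a length that is a multiple of 3. A 27-bp exon of Shank1 had a PSI of 0.376 and 0.396, and a 30-bp exon of Dlgap1 one of 0.713 and 0.711.

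Outside cortex, few junction reads were counted for the receptor genes. The C1 exon of Grin1 had 12 inclusion and 2 skipping reads in ESC replicate 2 and no reads in replicate 1. The 87-bp exon of Grik2 had 0 and 1 inclusion reads and 1 and 8 skipping reads in the lung libraries.

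In the 4 fibroblast libraries, treated for 4 h with DMSO or 0.1 µM pladienolide B, Gria1 was listed at 0.465 to 0.569 TPM and Grin1 at 0.116 to 0.178 TPM. The other 6 genes were listed at 0.00576 TPM or less.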
